A study of Homo sapiens with 6 samples.

Results

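Transcripts of 40 enzymes of glutathione metabolism were followed in WM164, a human melanoma cell line with an activating BRAF mutation. The genes were chosen by name, for their roles in making, using and breaking down glutathione or in supplying the NADPH that keeps it reduced. The choice was made with earlier results of these data known. All 40 were found among the 60504 genes of the deposited table. The 3 control libraries came from WM164 cells with an empty expression vector (EV). The other 3 came from WM164 cells carrying an HDAC8 expression vector, and HDAC8 is a class I histone deacetylase. Per the methods of the study, both kinds of cell were transfected with plasmid and kept in hygromycin, and no drug treatment of the sequenced cells is given. Whether the lines were pools or single clones is not given in the sources used here. Nothing states that the libraries of a group came from separate cultures, so p-values measure the spread between these libraries.

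Glutathione is a tripeptide of glutamate, cysteine and glycine and the most abundant small thiol of the cell. Glutamate-cysteine ligase makes the first bond and glutathione synthetase the next. Peroxidases use glutathione to reduce peroxides, transferases attach it to reactive compounds, glutaredoxins use it to reduce protein disulfides, and glutathione reductase restores the oxidized form with NADPH. Outside the cell it is cut by gamma-glutamyltransferases, and inside it by CHAC enzymes. Many of these genes are known targets of NRF2, a transcription factor that binds antioxidant response elements, and melanoma cells rely on the system to withstand oxidative stress.

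Total counts per library ran from 34741083 to 42041462 and overlapped between the groups. Genes of the set took 0.151% to 0.159% of all counts in EV and 0.111% to 0.119% in those labelled HDAC8. HDAC8 replicate 1 stood apart from the other HDAC8 libraries, with a chi-square per degree of freedom over genes of 153.4 and 101.7 against them, where the other pairs within a group had 26 to 47.3. Without it 9 of the 11 enzymes that fell in the HDAC8 libraries were still called (all but GCLM and GSTM4), and the median log2 fold change over the enzymes was -0.35 in place of -0.47. Mitochondrially encoded transcripts took 9.66% to 12.8% of the counts in EV and 4.46% to 7.94% in HDAC8. A fit without them kept all 11 calls, but it tested 26145 in place of 26162 genes and so could change little. With size factors from total counts, which include these transcripts, 9 of the 11 calls were kept. Their part in the results was not tested further. The HDAC8 transcript itself had a mean of 422.3 ± 50 normalized counts in EV and 468.0 ± 20.3 in HDAC8 (SD, n = 3; DESeq2 adjusted p = 0.856), and cannot serve as a check of the labels, so each direction given is that of the libraries labelled HDAC8. Of 8 melanocyte lineage markers all had counts, with summed normalized counts of 244960.8 to 328760.5 in EV and 137043.5 to 182217.7 in HDAC8. DESeq2 called 5 of the 8 lower (MLANA, PMEL, TYR, DCT and S100B), and MITF, the lineage's transcription factor, was not called. In each list of 4 markers of fibroblasts, keratinocytes and endothelial cells 1 gene had no count in any library (DCN, KRT1 and CDH5). The sum of 3 leukocyte markers ran from 2286.0 to 3302.4 in EV and from 4272.8 to 6164.6 in HDAC8, mostly CD68. PTPRC and CD3E had no count in EV. PTPRC had 3 counts in HDAC8 1 alone, and CD3E had 50.1 to 91.1 normalized counts in HDAC8. CD68 (log2 fold change 0.92, DESeq2 adjusted p = 3.13e-05) and CD3E (8.66, DESeq2 adjusted p = 1.1e-06) were called higher. Summed fibroblast markers were 2413.3 to 2863.7 in EV and 1396.3 to 2393.4 in HDAC8, mostly LUM. LUM and PDGFRB (log2 fold changes -0.60 and -2.79) were lower in HDAC8 without overlap, and neither was called. PDGFRA of that list was called higher (log2 fold change 1.16, DESeq2 adjusted p = 0.0377). The part of these shifts in the results was not tested.

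To determine how the enzymes differed between the groups, each was read from one test across all genes. Normalized counts are counts divided by a DESeq2 size factor. A call needed both a p under 0.05 after Benjamini-Hochberg adjustment and a log2 fold change, in either direction, of 0.58 or more. Of the 40 enzymes 37 had enough counts to be tested (a total of at least 10) and 36 received an adjusted p. DESeq2 called 11 of the 36 lower in the HDAC8 libraries and 0 higher, so 30.6% of those with an adjusted p were called lower. Over all genes 5.44% were called lower and 5.57% higher. As the list was chosen with earlier results of these data known, these shares only describe it. At an unadjusted p the only enzyme under 0.05 with a positive log2 fold change was GLRX, and neither edgeR nor limma-voom called any enzyme higher. All 11 averaged 50 normalized counts or more over the 6 libraries. Among all genes at that level 6.64% were called lower and 7.38% higher. The genes that fell were GCLM, GPX1, GSTM4, GSTO1, MGST2, MGST3, GGT7, IDH1, IDH2, PGD and GLRX2. Over all genes tested the groups did not overlap in 24%. Among the enzymes they did not overlap in 17 with HDAC8 lower, against 12.7% of all genes tested, and in 2 with HDAC8 higher, against 11.3%. The median log2 fold change was -0.47 over the 37 enzymes and 0.00 over all genes tested. Without HDAC8 replicate 2 the median over the enzymes was -0.26. Library by library, the median log2 difference from the EV mean of the 29 enzymes with a mean of at least 50 was -0.34, -0.47 and -0.34 in HDAC8 1, 2 and 3, and between -0.11 and 0.09 in the EV libraries. Thus the lower values were present in each of the 3 HDAC8 libraries.

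**Figure D1:**
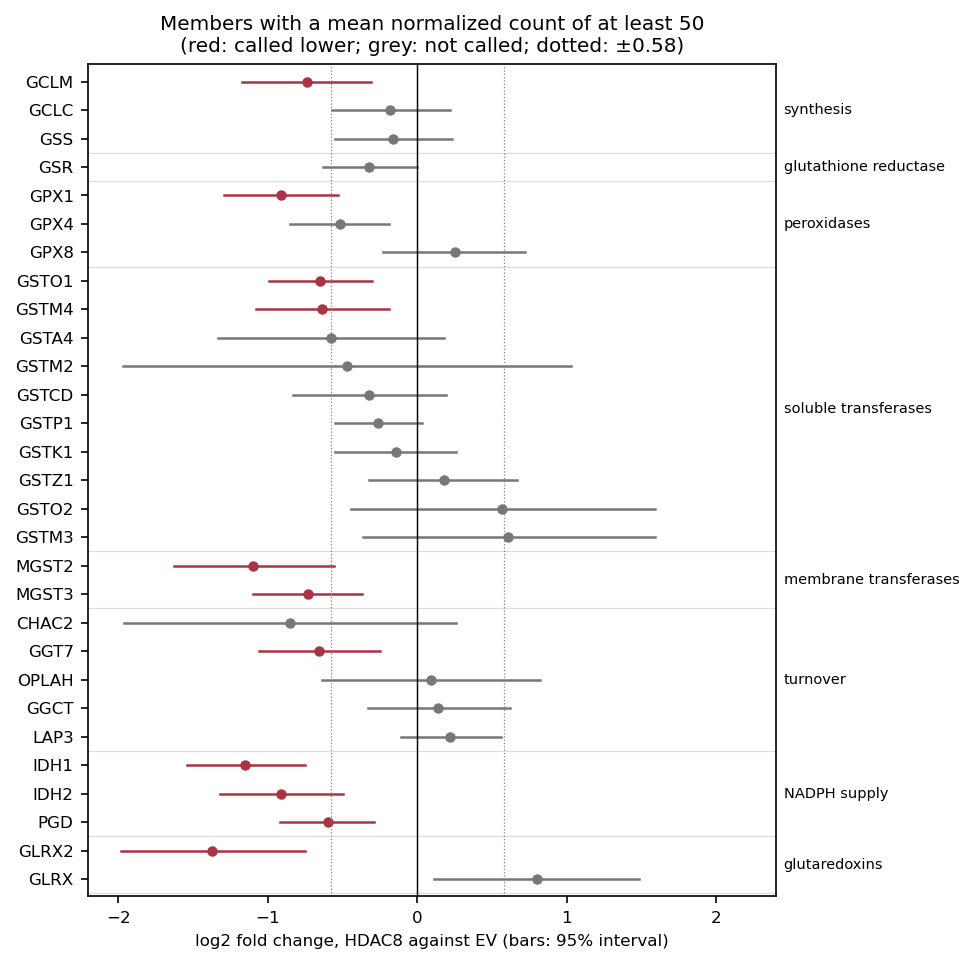
The horizontal axis is the log2 fold change of HDAC8 against EV with its 95% interval, for the 29 enzymes averaging 50 normalized counts or more, grouped by role. Red points are the 11 enzymes called lower, from -1.37 for GLRX2 to -0.60 for PGD, and none of the grey points was called. The dotted lines mark 0.58 in either direction.

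Because many of these genes carry antioxidant response elements, the RefSeq promoter windows (250 bases before to 50 after each start, GRCh38.p14) were searched on both strands for the letters TGACNNNGC, the core of that element. An entry was found for 34 of the 40 enzymes. Among the genes called lower, 4 of 10 with an entry held the core (GCLM, IDH1, GSTO1 and PGD), against 6 of 21 enzymes that were tested and not called, and 16.1% of all 27305 genes. The AP-1 letters TGANTCA, which can overlap the same element, were in 0 of the 10, in 1 of the 21 and in 9.37% of all genes. The MITF-type letters CATGTG were in 1 of the 10, 1 of the 21 and 13.4% of all genes. For CACGTG these were 2 of the 10, 1 of the 21 and 8.77% of all genes. A match only says that the letters are present, and sequence outside the windows was not searched. The 250 bases before the RefSeq start are shown for 2 genes that fell, GCLM (chr1:93909431-93909680, minus strand) and IDH1 (chr2:208255072-208255321, minus strand), and for GSTP1 (chr11:67583562-67583811, plus strand), the best-counted transferase, which was not called and also holds the core. Capitals mark the core.
GCLM: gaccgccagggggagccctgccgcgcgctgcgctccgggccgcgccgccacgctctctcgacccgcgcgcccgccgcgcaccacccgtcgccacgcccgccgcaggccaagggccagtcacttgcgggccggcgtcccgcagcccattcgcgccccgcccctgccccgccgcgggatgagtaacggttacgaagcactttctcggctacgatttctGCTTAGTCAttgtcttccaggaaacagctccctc
IDH1: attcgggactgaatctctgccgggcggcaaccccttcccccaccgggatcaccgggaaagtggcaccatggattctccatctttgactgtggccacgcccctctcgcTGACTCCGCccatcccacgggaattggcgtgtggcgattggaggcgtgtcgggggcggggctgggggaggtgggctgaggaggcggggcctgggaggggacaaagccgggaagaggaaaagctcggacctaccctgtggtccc
GSTP1: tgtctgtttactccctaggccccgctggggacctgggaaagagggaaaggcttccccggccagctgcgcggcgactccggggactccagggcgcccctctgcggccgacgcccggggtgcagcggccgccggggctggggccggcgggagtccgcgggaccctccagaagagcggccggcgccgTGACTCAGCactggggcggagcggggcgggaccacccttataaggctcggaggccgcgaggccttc
The shorter stretches around the core in PGD (core at chr1:10398863-10398871) and GSTO1 (cores at chr10:104254666-104254674 and chr10:104254731-104254739) are given for comparison, with the core in capitals and the bases around it in lower case.
PGD: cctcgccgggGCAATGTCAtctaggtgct
GSTO1 first core: ggcggagggaTGACTGAGCatttataact
GSTO1 next core: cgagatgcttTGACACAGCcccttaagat
The core thus stood in genes that fell and in genes that were not called.

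Among the enzymes of synthesis, the modifier subunit of glutamate-cysteine ligase fell and the catalytic subunit was not called. GCLM (ENSG00000023909, chromosome 1, 93885199 to 93909456, minus strand) encodes the subunit that makes the ligase more efficient. Its normalized counts were 4123.1, 2969.9 and 3394.7 with the empty vector and 1454.5, 2618.8 and 2216.0 with the HDAC8 vector. All EV libraries were above all HDAC8 libraries, with HDAC8 1 lowest. The log2 fold change was -0.74 (standard error 0.22, DESeq2 adjusted p = 0.00916). The call was lost without EV replicate 1 (log2 fold change -0.60, DESeq2 adjusted p = 0.141) and without HDAC8 replicate 1 (-0.53, which is under the fold minimum). GCLC, the catalytic subunit, had 1163.9 ± 80.8 normalized counts in EV and 1030.0 ± 79.2 in HDAC8 (SD, n = 3). The 95% interval of its log2 fold change of -0.18 ran from -0.57 to 0.22 (DESeq2 adjusted p = 0.709). GSS, which adds the glycine, had 2010.2 ± 241.1 and 1794.1 ± 325.9 (log2 fold change -0.16, 95% interval -0.55 to 0.23, DESeq2 adjusted p = 0.732). The ratio of GCLC to GCLM counts within a library was 0.261, 0.417 and 0.346 in EV and 0.721, 0.419 and 0.426 in HDAC8. The groups did not overlap, but EV 2 and HDAC8 2 were nearly equal. An exact two-sided permutation test gave p = 0.1, the smallest that 3 against 3 libraries allow, and an adjusted value of 0.133 over the 4 ratios computed.

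NADPH supply was the role in which every member fell. IDH1 (ENSG00000138413, chromosome 2, 208236229 to 208266074, minus strand), the cytosolic isocitrate dehydrogenase, had normalized counts of 5742.1, 5124.5 and 5967.9 in EV and 1719.6, 3049.9 and 2834.5 in HDAC8. Every HDAC8 library was well under every EV library. The fold was 0.452 (95% interval 0.343 to 0.594, log2 fold change -1.15, standard error 0.20, DESeq2 adjusted p = 6.20e-07). IDH2 (chromosome 15, 90083045 to 90102477, minus strand), its mitochondrial counterpart, had 1317.0, 1599.8 and 1398.9 against 757.6, 852.1 and 683.9. The groups were again apart (log2 fold change -0.91, standard error 0.21, DESeq2 adjusted p = 3.02e-04). The ratio of IDH1 to IDH2 counts overlapped between the groups (3.94 ± 0.643 and 3.33 ± 0.962, SD, n = 3, exact permutation p = 0.5). PGD (chromosome 1, 10398592 to 10420511, plus strand) encodes 6-phosphogluconate dehydrogenase of the pentose phosphate pathway. It had 7079.1, 8293.3 and 7809.1 normalized counts in EV and 6199.3, 4565.7 and 4482.1 in HDAC8, and HDAC8 1 lay closest to EV. Its log2 fold change of -0.60 (standard error 0.16, DESeq2 adjusted p = 0.00308) was just past the minimum. It went under the minimum without EV replicate 2 (-0.55), without HDAC8 replicate 2 (-0.53), without HDAC8 replicate 3 (-0.52) and with size factors from total counts (-0.55).

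**Figure D2:**
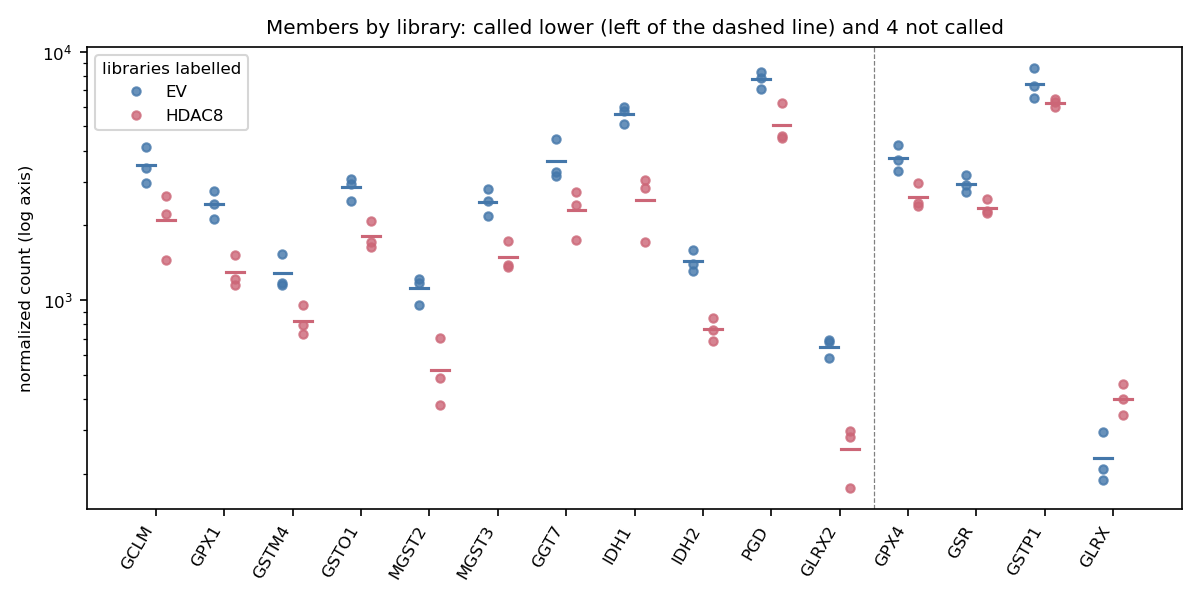
The vertical axis gives normalized counts on a log axis, each point is a library and each bar a group mean (EV blue, HDAC8 red, 3 libraries each). In the 11 enzymes left of the dashed line every HDAC8 library lies under every EV library. GLRX, at the far right, has the opposite order, with 190.1 to 294.7 in EV and 347.4 to 458.8 in HDAC8.

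Of the glutathione peroxidases, GPX1 fell and GPX4 was lower by less than the fold minimum. GPX1 (ENSG00000233276, chromosome 3, 49357174 to 49358605, minus strand), the general cytosolic peroxidase, had 2121.3, 2737.4 and 2448.0 normalized counts in EV and 1156.1, 1514.7 and 1217.4 in HDAC8. All HDAC8 libraries were under all EV libraries (log2 fold change -0.91, standard error 0.19, DESeq2 adjusted p = 6.30e-05). The deposited table types GPX1 as a polymorphic pseudogene, whereas GENCODE release 44 types it as protein coding, and 40.7% of the 31-base words of its transcripts also occur in transcripts of other genes. GPX4 (chromosome 19, 1103982 to 1106791, plus strand), which reduces lipid hydroperoxides and restrains ferroptosis, had 3314.6, 4213.0 and 3654.8 against 2960.3, 2384.2 and 2459.9. The groups did not overlap, and its log2 fold change of -0.52 (standard error 0.17, DESeq2 adjusted p = 0.021) was past the p threshold only. It was called without EV replicate 1 (-0.60, DESeq2 adjusted p = 0.037) and without HDAC8 replicate 1 (-0.62, DESeq2 adjusted p = 4.71e-04). It missed the p threshold too with limma-voom (adjusted p = 0.0627) and with a block for replicate number (DESeq2 adjusted p = 0.0783). GPX8, a peroxidase of the endoplasmic reticulum, had 1601.3 ± 362.2 and 1898.2 ± 491.8 normalized counts (SD, n = 3), with overlapping groups and a 95% interval of the log2 fold change of -0.23 to 0.72. GPX2 and GPX3 were at or under 57.9 normalized counts in every library and were not called, and GPX7 had 3 counts in EV 3 alone and was not tested.

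Glutathione reductase, GSR, recycles oxidized glutathione and has no second member in the set. Its normalized counts were 2713.8, 3181.9 and 2906.1 in EV and 2236.0, 2278.7 and 2548.1 in HDAC8. The groups did not overlap, but the log2 fold change of -0.32 (95% interval -0.63 to 0.00, DESeq2 adjusted p = 0.203) was not called in any of 16 alternative settings.

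Of 13 soluble transferases 12 were tested, and GSTO1 and GSTM4 fell. GSTP1 (ENSG00000084207, chromosome 11, 67583742 to 67586656, plus strand), the pi-class enzyme, had the highest counts of the role, with 6487.7, 8584.7 and 7235.8 normalized counts in EV and 5981.3, 6247.3 and 6413.9 in HDAC8. The lowest EV library stood just above the highest HDAC8 library, and the log2 fold change of -0.26 (95% interval -0.55 to 0.03, DESeq2 adjusted p = 0.283) was not called. GSTO1 (chromosome 10, 104235356 to 104267459, plus strand), an omega-class enzyme with thiol transferase activity, had 2928.7, 3084.8 and 2514.0 against 2077.0, 1644.8 and 1722.7. Its groups were apart (log2 fold change -0.65, standard error 0.18, DESeq2 adjusted p = 0.00371). The call was lost without EV replicate 1 (-0.63, DESeq2 adjusted p = 0.051) and without HDAC8 replicate 2 (-0.58, just under the fold minimum). GSTM4 (chromosome 1, 109656099 to 109665496, plus strand), a mu-class enzyme, had 1153.5, 1531.7 and 1177.2 against 792.7, 958.6 and 734.0. Its groups did not overlap, and its log2 fold change was -0.64 (standard error 0.23, DESeq2 adjusted p = 0.0402), the weakest of the 11 calls by adjusted p. It was not called in 9 of 16 alternatives, among them the fits without EV replicate 1 (-0.71, DESeq2 adjusted p = 0.0863), EV replicate 2 (-0.49, 0.251), EV replicate 3 (-0.70, 0.0943), HDAC8 replicate 1 (-0.61, 0.0531) and HDAC8 replicate 3 (-0.56, 0.197).

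The mu-class genes lie side by side on chromosome 1 and share sequence, so their counts carry extra uncertainty. Of the 31-base words of GSTM1 transcripts 61.1% occurred in other genes, against 18.6% for GSTM4, 17.4% for GSTM2 and 14.9% for GSTM5. The deposited counts of GSTM1, GSTM2 and GSTM4 were not whole numbers in 3 libraries each. For all 3 genes those were the EV libraries, and the part of divided reads in the GSTM4 result was not tested. GSTM1 had 3.1, 15.9 and 8.9 normalized counts in EV and no count in HDAC8, at least 3.13-fold lower against the floor of 3 counts per library, and it received no adjusted p. GSTM5 had no count in any library, and 3 counts in a library is the most that this allows. GSTM3 had 66.1, 256.8 and 214.8 in EV and 323.2, 254.0 and 246.1 in HDAC8 (log2 fold change 0.61, DESeq2 adjusted p = 0.529). Its groups overlapped because EV 2 stood above HDAC8 2 and 3, while EV 1 lay far under the rest. GSTM2 had 63.4 ± 14.2 and 45.7 ± 18.6 (SD, n = 3) and was not called.

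The remaining soluble transferases were not called. GSTO2, the other omega-class gene, had the opposite order to GSTO1, with 94.0 ± 18.4 normalized counts in EV against 139.7 ± 13.5 (SD, n = 3), at a DESeq2 adjusted p of 0.594 for the log2 fold change of 0.57. GSTA4, which acts on the lipid peroxidation product 4-hydroxynonenal, had a log2 fold change of -0.58 (95% interval -1.33 to 0.18). GSTK1, the mitochondrial and peroxisomal form, GSTZ1, which takes part in tyrosine breakdown, and GSTCD had log2 fold changes of -0.14, 0.18 and -0.32. HPGDS, a transferase that makes prostaglandin D2, had 9.4, 0.9 and 37.4 in EV and no count in HDAC8 (DESeq2 adjusted p = 0.08). Its EV mean was 5.37 times the floor, but EV 3 set most of that mean and EV 2 was under the floor. The 95% interval of its fold ran from 0.00034 to 0.379.

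The membrane-bound transferases MGST2 and MGST3 both fell. MGST2 (ENSG00000085871, chromosome 4, 139665768 to 139740745, plus strand), which can also make leukotriene C4, had 955.3, 1174.9 and 1220.6 normalized counts in EV and 378.8, 486.5 and 703.5 in HDAC8. The highest HDAC8 library was under the lowest EV library, and the fold was 0.468 (95% interval 0.322 to 0.679, log2 fold change -1.10, standard error 0.27, DESeq2 adjusted p = 0.00118). MGST3 (chromosome 1, 165631213 to 165661796, plus strand) had 2174.8, 2502.9 and 2789.9 against 1734.1, 1385.7 and 1366.6. The groups were apart here too (log2 fold change -0.73, standard error 0.19, DESeq2 adjusted p = 0.00155). MGST1 had 13.6, 11.2 and 105.4 in EV and 0.0, 19.5 and 0.0 in HDAC8, so EV 3 and HDAC8 2 each decide its group. It was not called (DESeq2 adjusted p = 0.327), but was without HDAC8 replicate 2, when no count was left in that group (DESeq2 adjusted p = 0.0022).

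Of the 9 turnover enzymes 8 were tested and only GGT7 fell. GGT7 (chromosome 20, 34844720 to 34872856, minus strand), a member of the gamma-glutamyltransferase family, had 3268.5, 4434.3 and 3173.1 normalized counts in EV and 2736.3, 1741.1 and 2426.2 in HDAC8. The groups did not overlap, with EV 2 highest and HDAC8 2 lowest, and the log2 fold change was -0.66 (standard error 0.21, DESeq2 adjusted p = 0.0152). It was not called without EV replicate 2 (-0.49, DESeq2 adjusted p = 0.164), HDAC8 replicate 2 (-0.49, 0.093) or HDAC8 replicate 3 (-0.70, 0.0503). GGT1, the main surface gamma-glutamyltransferase, had at most 44.5 normalized counts in a library, and GGT5 had 5 counts in EV 2 alone and was not tested. GGCT, which releases 5-oxoproline from gamma-glutamyl amino acids, had 805.5 ± 115.5 and 889.5 ± 152.7 (SD, n = 3), and 24.1% of the words of its transcripts also occur in 1 other gene. OPLAH, which opens 5-oxoproline, and LAP3, a leucine aminopeptidase, had log2 fold changes of 0.09 and 0.22 with 95% intervals of -0.64 to 0.82 and -0.11 to 0.56. CHAC2, which degrades glutathione in the cytosol, had 146.8, 139.2 and 91.6 against 67.6, 62.5 and 79.5, without overlap but also without a call (log2 fold change -0.85, DESeq2 adjusted p = 0.401). CHAC1, the stress-induced form, ran from 2.6 to 39.2 normalized counts and the surface aminopeptidase ANPEP from 0.0 to 37.4, and neither was called.

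Of the 2 glutaredoxins GLRX2 fell and GLRX was not called. GLRX2 (ENSG00000023572, chromosome 1, 193090866 to 193106114, minus strand), the mitochondrial and nuclear form, had the largest fall of the 11, with 690.0, 584.6 and 677.8 normalized counts in EV and 176.1, 299.1 and 282.0 in HDAC8. Every HDAC8 library was far under EV, and the fold was 0.387 (95% interval 0.253 to 0.594, log2 fold change -1.37, standard error 0.31, DESeq2 adjusted p = 2.98e-04). GLRX, the cytosolic form, had 294.7, 210.1 and 190.1 against 401.0, 458.8 and 347.4. All HDAC8 libraries were above all EV libraries, but the log2 fold change of 0.80 (standard error 0.35, DESeq2 adjusted p = 0.122) was not called. With at least 10 counts required in every library, a separate fit over fewer genes, its DESeq2 adjusted p was 0.0337. What lowered the value in that fit was not tested. The ratio of GLRX to GLRX2 counts within a library was 0.427, 0.359 and 0.281 in EV and 2.28, 1.53 and 1.23 in HDAC8. The groups lay far apart, and the exact two-sided permutation p of 0.1 is the smallest that the design allows (0.133 adjusted over 4 ratios). The last of the 4 ratios, of GPX1 to GPX4, was 0.640, 0.650 and 0.670 in EV and 0.391, 0.635 and 0.495 in HDAC8 (exact permutation p = 0.1, 0.133 adjusted).

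Levels of different genes were compared per transcript length, as TPM (counts per length, scaled to one fixed total within each library) in EV. GSTP1 was the most abundant enzyme at 344 ± 31.6 TPM (SD, n = 3), followed by PGD at 190 ± 6.93, GPX4 at 166 ± 12.3, and GPX1 at 139 ± 8.87 and GSTO1 at 139 ± 21.5, which did not differ beyond their spread. This order uses merged exon lengths, and below GPX4 it can depend on that choice. The longest transcript has 1052 bases against 1691 merged for GSTO1, 1150 against 1432 for GPX1 and 2441 against 4699 for IDH1. GSTP1 held 19.4% to 22.1% of the summed TPM of the set in EV and 22.8% to 24.6% in HDAC8. GCLM stood at 53.5 ± 14 TPM against 26.7 ± 2.68 for GSS and 11.1 ± 0.427 for GCLC. With lengths from the longest transcript the means over all 6 libraries were 41.1 TPM for GCLM, 45.7 for GSS and 21.0 for GCLC, so GCLM stayed above GCLC but not above GSS. At least 1 TPM was reached by 27 of the 40 enzymes in EV. The summed TPM of the peroxidases was 325 to 354 in EV and 274 to 280 in HDAC8, and that of the NADPH enzymes 319 to 348 and 218 to 250. For the membrane transferases it was 52.2 to 57.9 and 31.1 to 38.9. The groups overlapped in the summed TPM of the other roles, with 82.9 to 108 and 70.8 to 83.9 for synthesis, 532 to 623 and 527 to 565 for the soluble transferases, and 173 to 218 and 165 to 229 for turnover. The sums for the reductase (62.6 to 68.9 and 59.9 to 70.3) and the glutaredoxins (9.98 to 14.4 and 9.30 to 11.5) overlapped as well. TPM served for levels only. On that scale the means of GCLC (11.1 ± 0.427 in EV and 11.7 ± 0.732 in HDAC8), GSS (26.7 and 28.7), GSTK1 (40.8 and 44.5) and GSTP1 (344 and 346) had the opposite order to their normalized counts. The groups also overlapped in TPM for GCLM, GSTO1, PGD and GGT7, which were called lower on normalized counts.

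**Figure D3:**
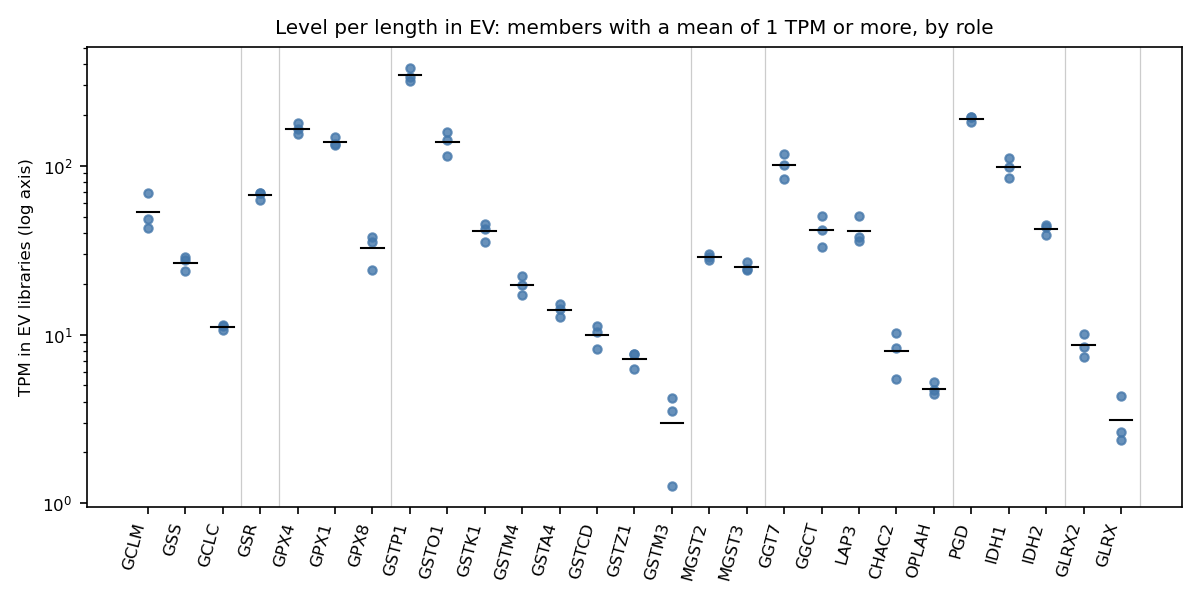
The vertical axis gives TPM on a log axis in the 3 EV libraries (points) with their mean (bar), for the 27 enzymes with a mean of at least 1 TPM, grouped by role. GSTP1 is highest at a mean of 344 TPM, and GSTM3 at 3.00 and GLRX at 3.10 are the lowest shown.

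Genes next to the 11 that fell were examined for shared change, taking on each side the 5 nearest genes that averaged 50 normalized counts or more. Enzymes of the set were not left out of the neighbours, among them GSTM2 near GSTM4, GSTO2 near GSTO1 and GSS near GGT7. Of these 110 neighbours 15 were called lower and 4 higher, where 6.64% and 7.38% of all genes at that level were. The medians of the neighbours ran from -0.62 around IDH2, where 2 were called lower, to 0.42. Around GLRX2 all 10 neighbours had negative log2 fold changes, from -5.02 to -0.29 with a median of -0.61, and 4 were called lower. Around GGT7 they ran from -0.96 to -0.16 with a median of -0.59, and 4 were called lower. Around IDH1 and GSTO1 the medians were -0.41 and -0.34, with 0 and 2 called lower. Around GCLM and GSTM4 the medians were 0.23 and 0.42, the opposite sign to the enzyme. The part of the region in each change was not tested.

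Related pathways were read from the same test, and 51 of 59 listed genes were tested. DESeq2 called 6 of the 51 lower (11.8%, against 5.44% of all genes) and 1 higher (1.96%, against 5.57%), with a median log2 fold change of -0.01. Cysteine supply held 3 of the 6 among its 7 genes. SLC7A11, the cystine importer of system xc-, had 30942.1, 28424.3 and 31031.5 normalized counts in EV and 7799.2, 13233.0 and 11817.3 in HDAC8, far under EV in every library (log2 fold change -1.46, standard error 0.17, DESeq2 adjusted p = 5.90e-15). CTH and CBS, which make cysteine from homocysteine, fell from 2283.1 ± 161.2 to 742.6 ± 55.7 and from 3034.8 ± 161.7 to 1571.5 ± 354 (SD, n = 3), with log2 fold changes of -1.62 and -0.95. SLC7A11 and CTH were the 2 genes of these lists that remained called in a test against the fold minimum itself. SLC3A2, the partner chain of SLC7A11, had a log2 fold change of 0.13 (95% interval -0.23 to 0.49).

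Of 6 other genes of NADPH supply or the pentose phosphate pathway 1 was called lower. TKT of the non-oxidative pentose phosphate branch fell from 14849.0 ± 2695.5 to 9865.3 ± 1157.1 normalized counts (SD, n = 3), with a log2 fold change of -0.59 (DESeq2 adjusted p = 0.00307), which went under the minimum without EV replicate 2 (-0.43), without HDAC8 replicate 2 (-0.49) and with size factors from total counts (-0.54). NNT, the mitochondrial transhydrogenase, had the opposite order without a call (log2 fold change 0.32, DESeq2 adjusted p = 0.145). In the thioredoxin system, which works in parallel to glutathione, TXN fell by 0.79 on the log2 scale (2515.5 ± 61.3 to 1455.2 ± 139.1 normalized counts, DESeq2 adjusted p = 8.53e-05). PRDX1, a peroxiredoxin and the most counted gene of that list, had the opposite order without overlap and without a call (6069.7 ± 201.9 and 8048.7 ± 1345.2, log2 fold change 0.41, DESeq2 adjusted p = 0.0546). TXNRD1 and PRDX6 were past the p threshold at log2 fold changes of -0.52 and -0.56, under the fold minimum. GLRX3, a monothiol glutaredoxin, fell by 0.98 on the log2 scale (DESeq2 adjusted p = 3.29e-05), and the glutathione conjugate exporter ABCC1 was not called (-0.45, DESeq2 adjusted p = 0.101). None of the 6 polyamine and nucleotide genes was called, and the most counted of them, RRM2, had a log2 fold change of -0.15.

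Of 9 genes listed for NRF2, its regulators and partners and a related factor, 1 was called higher and 0 lower. NFE2L2, the gene of NRF2, had 6651.3, 6086.4 and 6661.4 normalized counts in EV and 3267.3, 5254.9 and 4628.0 in HDAC8, and its log2 fold change of -0.56 (standard error 0.18, DESeq2 adjusted p = 0.017) was under the fold minimum. KEAP1, which targets NRF2 for degradation, had 1012.4 ± 143.5 and 1486.1 ± 339.5 (SD, n = 3, log2 fold change 0.55, DESeq2 adjusted p = 0.0961). MAFK, a small MAF partner, was called higher (log2 fold change 0.90, DESeq2 adjusted p = 0.0188), but not without EV replicate 1 (0.81, DESeq2 adjusted p = 0.129), EV replicate 2 (0.86, 0.089) or HDAC8 replicate 1 (0.60, 0.134). The most counted gene of the list, NFE2L1, which encodes the related factor, had a log2 fold change of 0.04.

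**Figure D4:**
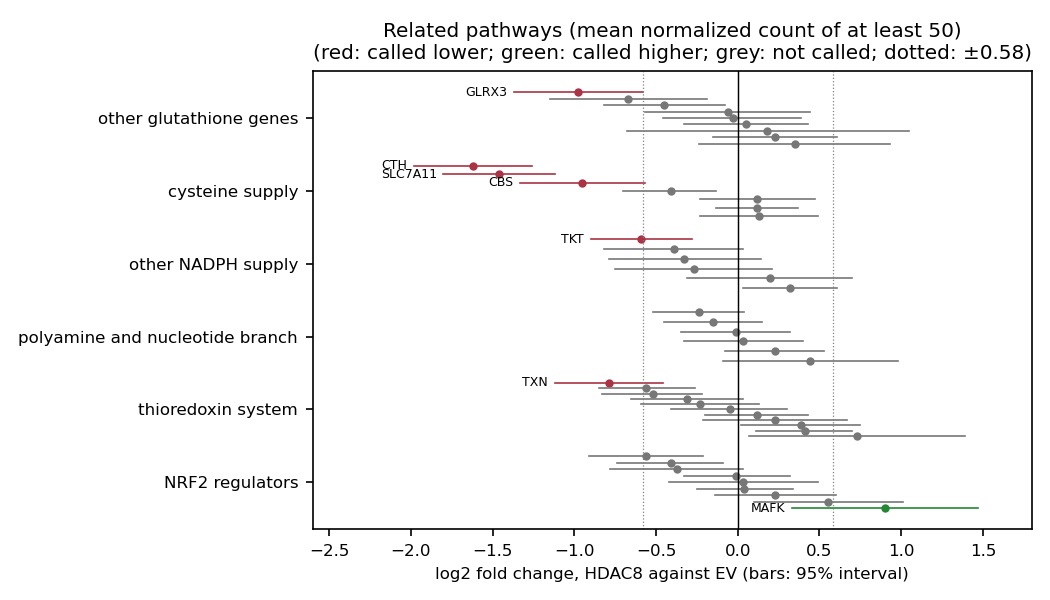
The horizontal axis gives the log2 fold change of HDAC8 against EV with its 95% interval for genes of 6 related lists that averaged 50 normalized counts or more. The named red points are the 6 genes called lower, led by CTH at -1.62 and SLC7A11 at -1.46, and the green point is MAFK at 0.90.

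The 11 calls differed in how firmly they held. GPX1, MGST2, MGST3, IDH1, IDH2 and GLRX2, 6 of the 11, were called in all 15 alternatives other than the test against the fold minimum, including each fit that left out a library. The other 5 lost the call in at least 1 further alternative. Against the fold minimum itself 0 of the enzymes were called by DESeq2, IDH1 coming nearest at an adjusted p of 0.141, so a fall of more than the minimum was not shown for any single enzyme. No called enzyme changed sign in any alternative.

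**Figure D5:**
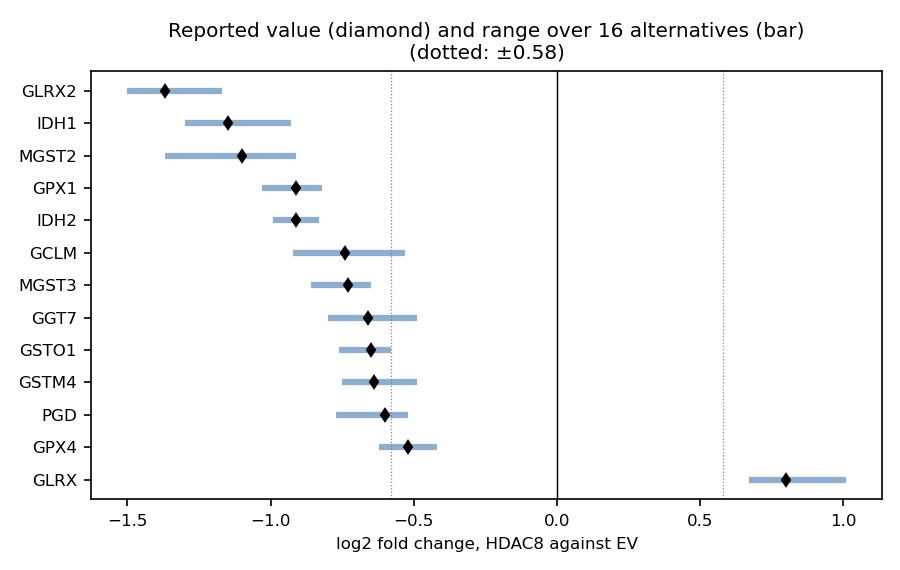
The diamonds give the reported log2 fold change of HDAC8 against EV for the 11 enzymes called lower and for GPX4 and GLRX, and the bars the lowest and highest values over 16 alternatives. The bar of GLRX2 runs from -1.50 to -1.17 and that of GCLM from -0.92 to -0.53, and none crosses 0.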

How the data were processed

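RNA-seq of 6 WM164 libraries was used. Per the methods of the study, paired-end reads went through Trimmomatic and STAR, and the authors deposited the expected counts per gene that RSEM gave, with no scaling. RSEM divides a read among all genes it could stem from. The build, annotation and strand setting are not given in the sources used here, and the labels and the methods name different RNA kits. No column belonged to other samples.

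Expected counts were rounded. The test was DESeq2's Wald test (version 1.42.0, R 4.3.3), two-sided, with the group as its only term, over 26162 genes with a total of at least 10. P-values were adjusted over the 21021 genes that DESeq2 kept for adjustment, and the other 5141 received no adjusted p. Intervals are at the 95% level, and the floor of 3 counts covers counting error only. Gene positions and lengths came from GENCODE release 44 (GRCh38), in which 56558 identifiers were found, and TPM from merged exon lengths. Alternatives were edgeR 4.0.16, limma-voom (limma 3.58.1), other size factors, filters, rounding and gene lengths, a replicate block, a test against the fold minimum, a fit without mitochondrial genes and each library left out in turn. On simulated data for this comparison (23741 genes), DESeq2 recovered 47% of genes changed by 1 on the log2 scale and 77% of those changed by 2, with 53 false calls. No library repeated another: chi-square per degree of freedom ran from 26 to 153.4 over pairs within a group, the highest values being those of HDAC8 replicate 1.

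Some listed genes are not reported here. The members and lists were chosen with earlier results of these data known. Values in every library are given for members that were called, or had separate groups and an unadjusted p under 0.05, and for the most counted member of each role. Of the other lists, called genes and the most counted gene are named. Other genes named, the ratios, the neighbours and the motif search were chosen after values were seen.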

Additional observations from a re-analysis of the deposited data

How the results depend on the processing

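Over 16 alternatives to the reported test, values of enzymes kept direction and call in 541 cases, lost the call in 30, gained it in 5 and changed sign in 9, the last in genes that were not called in any of these fits. Tested against the fold minimum, 292 genes were called higher and 291 lower, with 0 enzymes lower, and 0 genes of the related lists higher and 2 lower, a stricter requirement by construction. With at least 10 counts in every library 1 enzyme, GLRX, was called higher, over fewer genes tested. Across the fits that each left out a library, 746 to 1378 genes, 8 to 10 enzymes and 6 to 10 genes of the related lists were called lower, and 0 to 3 of the latter higher. The count of 746 came without EV replicate 3. For the enzymes the count of 10 came without EV replicate 3, where GSTM4 was lost. It also came without HDAC8 replicate 1, where GCLM and GSTM4 were lost and GPX4 gained. Over the same fits the log2 fold change ran from -1.17 to 0.825 for ANPEP, from -1.439 to 0.81 for CHAC1, from -0.001 to 0.25 for GGCT, from -0.02 to 0.31 for GSTZ1 and from -0.115 to 0.27 for OPLAH. With limma-voom CHAC1 was at -0.587. Libraries with the same replicate number shared little deviation from their group means, with correlations of -0.027, -0.066 and 0.04. With 3 libraries per group these values cannot show whether the libraries were paired. Under the replicate block ANPEP was at 0.356 and CHAC1 at -0.575, 10 of the 11 calls remained (GSTM4 was lost, adjusted p = 0.0719), MGST1 was gained, and 0 related genes were called higher. The cause was not tested. Lengths from the longest transcript moved 16 of 40 TPM levels by more than 1 SD. ANPEP and CHAC1 had under 40 normalized counts in every library, which limits their precision.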
